A study of Mus musculus with 35 samples.

Results

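The control library was a plate of 96 wells, out of 1872 wells in the 9 deposited count tables, in which reference cells, organoid cells and blank wells were processed together. The series profiled single mouse small-intestinal cells by CEL-seq, in which the primer of a well marks its RNA with the well's barcode and with a random tag of 4 bases, and the wells are then pooled and amplified. Wells were grouped by well number as the study's design lists them. Wells 1 to 5 held single mouse embryonic stem cells (mESC), wells 6 to 10 single mouse embryonic fibroblasts (MEF), and wells 11 to 85 single cells drawn at random from small-intestinal organoids. The 6 wells 87 to 92 received primer and no template, although the design text counts them as 5. The 5 wells 86 and 93 to 96 received neither. The labels give the strain as C57BL/6 for the whole library and no genotype, passage or sex for the mESC and MEF, and no treatment. The labels do not say which organoid culture filled wells 11 to 85. The whole organoid libraries, 672 wells from 2 passages of a wild-type C57BL/6 culture grown from 1 mouse in Matrigel with EGF, R-spondin and Noggin, served as organoid cells from plates that the design gives no mESC or MEF.

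The table's name and column names give well numbers and no library. It was taken for the control library because of its content, so the presence of mESC and MEF transcripts in wells 1 to 10 was part of that assignment and is given as a description. Wells are single cells of 1 library and not replicates. No test was made, and intervals are exact 95% counting intervals that leave out the spread between cells, animals and cultures.

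Embryonic stem cells are kept undifferentiated by a circuit of transcription factors around Pou5f1 (OCT4) and Sox2, with naive-state factors such as Esrrb and Zfp42. Embryonic fibroblasts are mesenchymal cells that secrete collagens and other matrix proteins, and in culture many build contractile actin fibres. Organoid cells are epithelial, joined by E-cadherin and claudins, and include absorptive enterocytes and the secretory Paneth, goblet and enteroendocrine cells. Genes high in one kind of cell were therefore also counted in wells of the other kinds across the plate. Some of these genes are shared between kinds. Whether such a count came from the well's own cell or from another well was not tested.

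Each well is known only by its 8-base barcode. A few are shown because the results turn on transcripts assigned to these wells. The last 3 bases, which differ between barcodes that share their first 5 bases, are in capitals.
mESC well 2: gtcgtCGC
mESC well 5: catcaATC
MEF well 6: gtcgtATC
MEF well 7: acgacATC
MEF well 10: gtcgtTCC
organoid well 11: acgacTCC
organoid well 14: gtcgtGAA
organoid well 15: acgacGAA
organoid well 16: tgatgGAA
organoid well 19: gacacCGC
organoid well 62: tagacATC
MEF wells 6 and 10 share their first 5 bases with mESC well 2 and organoid well 14, and MEF well 7 shares them with organoid wells 11 and 15. The lowest distance between any 2 of the 96 barcodes was 2 bases.

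The wells gave very different numbers of counts. Counts of genes were 5237, 23467, 16515, 19922 and 15256 in mESC wells 1 to 5. They were 30946, 75924, 995, 875 and 43457 in MEF wells 6 to 10. MEF wells 8 and 9 were thus shallow. Their counts of spike-ins (added synthetic RNAs), 814 and 881, lay within the range of the other wells with cells. Of 75 organoid wells, 71 had at least 1500 gene counts (lowest 1505, median 14664, highest 44215) and serve as organoid cells. The other 4, wells 16, 26, 36 and 65, had between 723 and 1442 counts. MEF well 7 alone gave nearly as many counts as the 5 mESC wells together, which summed to 80397, against 152197 for MEF wells and 1078120 for the 71 organoid wells.

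**Figure D1:**
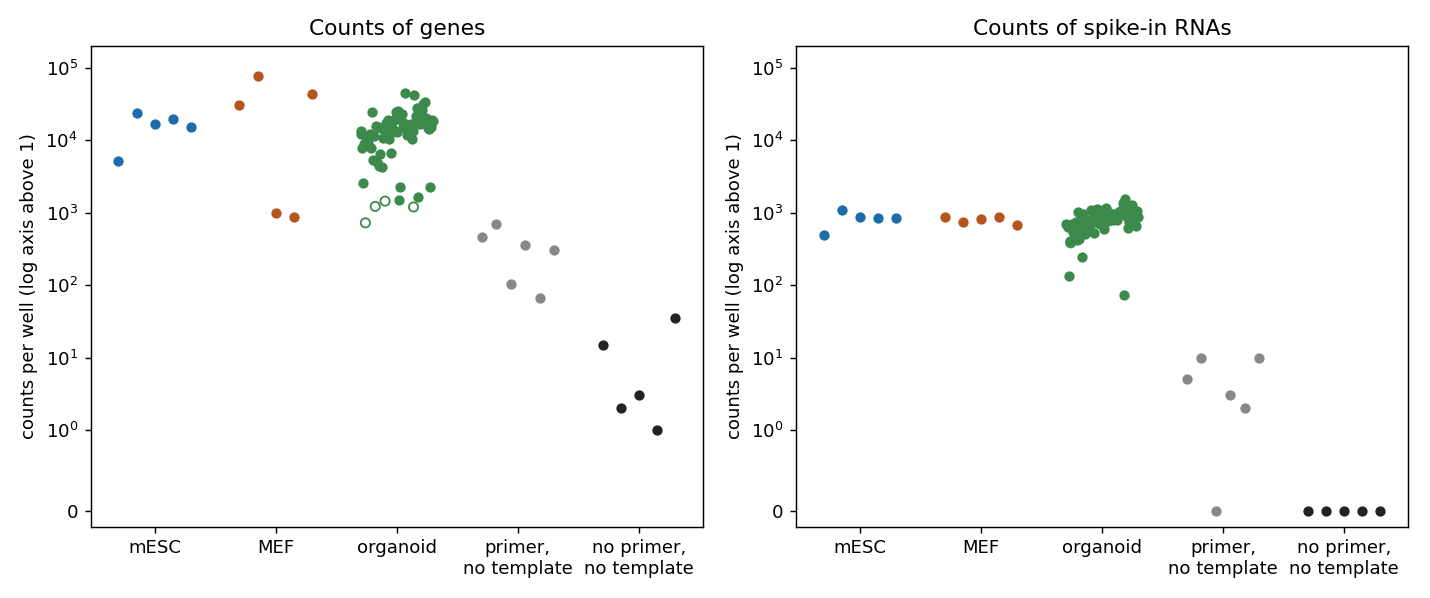
Counts of genes (left) and of spike-in RNAs (right) in each well, by kind of well, on an axis that is logarithmic above 1. Each point is 1 well, and open points are the 4 organoid wells under 1500 gene counts. MEF wells 8 and 9 lie under 1000 gene counts with ordinary spike-in counts, and the wells without template lie low in both.

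Counts of genes per spike-in count had a median of 19.2 in mESC wells, 35.6 in MEF wells (from 0.993 in well 9 to 102 in well 7) and 18.2 in organoid wells. The number of different genes did not separate the kinds once depth was made equal. In 1500 counts drawn from each well, the median was 955 genes in mESC wells, 956 in the 3 MEF wells deep enough and 944 in organoid wells (from 822 to 1091). Without drawing, the medians were 4556 genes in mESC wells, 6306 in those 3 MEF wells and 4110 in organoid wells.

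The mESC wells carried a naive pluripotency program. Dppa5a, an RNA-binding protein of pluripotent and germ cells (GRCm38 chr9:78367052-78368177, minus strand, protein coding), had 62, 214, 226, 164 and 76 counts in mESC wells 1 to 5, against 3, 0, 0, 0 and 10 in MEF wells 6 to 10, and between 0 and 8 with a median of 1 in organoid wells. No MEF or organoid well reached the lowest mESC well in counts. Its level was 92.3 per 10000 gene counts in mESC wells (85.8 to 99.2), 0.854 in MEF wells (0.455 to 1.46) and 0.835 in organoid wells (0.671 to 1.03), 111-fold higher in mESC than in organoid wells (88.7 to 139). CEL-seq counts a tag at each transcript's poly(A) end, so levels were not divided by gene length.

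Pou5f1 (chr17:35506018-35510772, plus strand) had 1, 30, 17, 21 and 14 counts in mESC wells 1 to 5, 1, 1, 0, 0 and 2 in MEF wells 6 to 10, and at most 4 in an organoid well. Its single count in mESC well 1, the shallowest of the 5, overlapped the other kinds, and the other mESC wells lay above every MEF and organoid well. The summed level was 10.3 per 10000 in mESC wells, 0.263 in MEF wells and 0.186 in organoid wells, a 55.7-fold difference between mESC and organoid wells (33.8 to 95.8). Zfp42 (REX1, chr8:43295063-43306980, minus strand), a zinc-finger protein of naive cells, had 3, 17, 13, 12 and 13 counts in mESC wells, 1 count in all MEF wells and at most 1 in an organoid well. It was 77.8-fold higher in mESC than in organoid wells (39.4 to 171).

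Of the 40 genes of the core and naive pluripotency list, 37 had a count in mESC wells, 13 in MEF wells and 31 in organoid wells. A gene was compared when it had at least 20 counts in either kind, and was past the fold when its level differed at least 4-fold with 20 counts in the higher kind, a sum under 3 being set to 3. Between mESC and organoid wells 19 list genes could be compared, of which 16 were past the fold higher in mESC and 0 lower, while 1.46% of all 7042 genes compared were higher. This share includes genes with under 20 counts in mESC wells, which could not pass as higher. The list's median log2 ratio was 6.07, against 0.23 over all genes compared. Against MEF wells 17 list genes could be compared and all 17 were past the fold higher in mESC (6.35% of 1543 genes), with a median log2 ratio of 4.34, against -0.44 over all genes. Tdgf1, a Nodal co-receptor, was 86.1-fold higher in mESC than in organoid wells (46.5 to 174). Sox2 was 95.8-fold higher (43.2 to 250), with 0 counts in mESC well 1. Esrrb, an orphan nuclear receptor of the naive state, was 107-fold higher (38.1 to 418).

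Some members separated the kinds less clearly or had no counts. Klf5, a factor that epithelial crypt cells also use, had a level of 6.72 per 10000 in mESC wells (5.05 to 8.76), 0.986 in MEF wells and 6.22 in organoid wells (5.75 to 6.70), so mESC and organoid wells differed by less than the counting error. Klf4 was past the fold, but only 5.02-fold higher in mESC than in organoid wells (3.54 to 7.02). Nanog, Dppa3 and Lin28a had 0 counts in all 3 kinds, which limits them to 0.373 per 10000 in mESC wells. Other early programs were scarcely counted. The 11 primed pluripotency genes had 8 counts in mESC wells, 3 in MEF wells and 14 in organoid wells. Per 10000 this was 0.995 in mESC wells (0.430 to 1.96), 0.197 in MEF wells and 0.130 in organoid wells (0.071 to 0.218). Fgf5, Otx2 and Pou3f1 were at 0 in every kind. The 8 genes of the two-cell-like state had 1, 0 and 0 counts in mESC, MEF and organoid wells. Gata4 and Gata6, which mark early endoderm and are also used by intestinal epithelium, had 0 and 4 counts in mESC wells, 2 and 2 in MEF wells, and 88 and 116 in organoid wells.

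**Figure D2:**
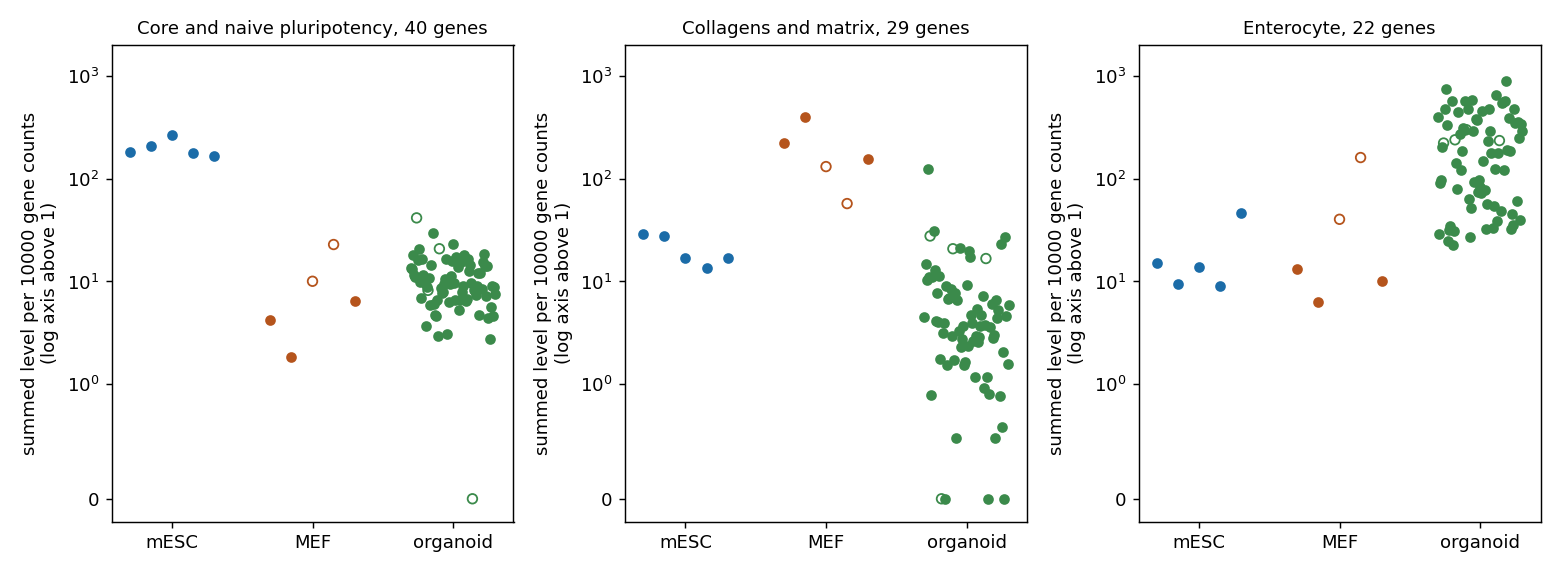
Summed level per 10000 gene counts of the pluripotency, matrix and enterocyte lists in each mESC, MEF and organoid well, on axes that are logarithmic above 1. Open points are wells under 1500 gene counts. All 5 mESC wells lie between 166 and 263 for pluripotency, apart from every other well, while MEF wells 8 and 9 (open) lie within the range of organoid wells for the enterocyte list.

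Among genes chosen for their ratio alone, with at least 100 counts and a count in all 5 mESC wells, the highest after Dppa5a was Nlrp1a, an inflammasome sensor. It had 9, 85, 99, 61 and 51 counts in mESC wells 1 to 5, between 0 and 3 in MEF wells and a median of 2 in organoid wells with a highest of 22. Its level was 37.9 per 10000 in mESC wells, 0.526 in MEF wells and 1.74 in organoid wells, 21.9-fold higher in mESC than in organoid wells (18.2 to 26.4). Hsp90aa1, a stress-inducible HSP90 chaperone, was the only other gene past the fold by this rule, at 45.5 per 10000 in mESC wells, 16.7 in MEF wells and 5.19 in organoid wells.

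Genes of DNA replication were also highest in mESC wells. The 15 genes summed to 47.4 per 10000 in mESC wells (42.8 to 52.4), 11.4 in MEF wells (9.80 to 13.3) and 12.2 in organoid wells (11.6 to 12.9). Of 14 genes compared with organoid wells 6 were past the fold higher in mESC, against 1.46% of all genes compared, among them Mcm2, Mcm5 and Mcm7, subunits of the replicative helicase. Mcm7 had a level of 6.84 per 10000 in mESC wells, 1.18 in MEF wells and 1.07 in organoid wells. Single organoid wells reached 63.1 for the list, close to the highest mESC well at 63.6, so the kinds overlapped. The 18 mitosis genes summed to 30.97 per 10000 in mESC wells, 14.7 in MEF wells and 9.80 in organoid wells, with 2 of 16 compared genes past the fold higher in mESC than in organoid wells, against the same 1.46%. Here too the kinds overlapped, as mESC wells ranged from 17.04 to 59.2, while the highest organoid well had 68.3 and the highest MEF well 34.3.

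The MEF wells carried matrix and contractile genes. Col1a1 (chr11:94936224-94953042, plus strand), a chain of type I collagen, had 74, 132, 1, 1 and 51 counts in MEF wells 6 to 10, and at most 5 in an organoid well, where the median was 0. The mESC wells had 3, 1, 0, 0 and 0 counts. MEF wells 8 and 9, with under 1000 gene counts each, overlapped the other kinds in counts, and the other 3 did not. The level was 17.02 per 10000 in MEF wells and 0.121 in organoid wells, 141-fold higher (81.1 to 269). Col1a2 (chr6:4504814-4541544, plus strand), the partner chain, had 103, 147, 3, 1 and 82 counts in MEF wells and was 79.3-fold higher than in organoid wells (54.5 to 119). Sparc (chr11:55394500-55423183, minus strand), a collagen-binding matrix protein, had 1, 10, 5, 3 and 5 counts in mESC wells, against 63, 200, 0, 0 and 74 in MEF wells. It thus had counts in every mESC well, at a level of 2.99 per 10000 in mESC wells, 22.1 in MEF wells and 0.464 in organoid wells.

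Of the 29 collagen and matrix genes, 23 could be compared between MEF and organoid wells, and all 23 were past the fold higher in MEF, against 4.12% of 7156 genes. Their median log2 ratio was 6.20, against -0.21 over all genes compared. Against mESC wells 20 of 23 compared genes were lower in mESC than in MEF wells (18.3% of all genes compared), and Fn1 (fibronectin) was among the 3 others, at 6.97 per 10000 in mESC wells and 25.3 in MEF wells. The summed list level was 28.6, 27.7, 16.95, 13.6 and 17.04 per 10000 in mESC wells 1 to 5. It was 220, 395, 131, 57.1 and 153 per 10000 in MEF wells 6 to 10. All MEF wells lay above all mESC wells, and the range over organoid wells was 0 to 125. The ratio of MEF to organoid wells for the list was 59.9 from summed counts (54.6 to 65.7), 37.4 without MEF well 7 and 25.1 when each well was weighted equally.

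Well 7 decided the level of several genes. Thbs1 (thrombospondin 1) had 68, 806, 1, 1 and 21 counts in MEF wells 6 to 10, so most of its 897 counts came from 1 cell. Fbln2 (fibulin 2) had 6, 162, 0, 0 and 33 counts, and its MEF level was 237-fold that of organoid wells (107 to 654). Igf2, an imprinted growth factor, was high in another well, with 1, 17, 0, 0 and 78 counts.

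The contractile list, whose members build and anchor actin fibres, had 14 of 15 genes past the fold higher in MEF than in organoid wells, with a median log2 ratio of 4.98, and Tagln2 was the remaining gene. Over all genes compared 4.12% were higher and the median was -0.21. Acta2 (smooth muscle actin) had 83, 617, 2, 2 and 168 counts in MEF wells and between 0 and 12 in organoid wells, a level of 57.3 per 10000 in MEF wells and 0.455 in organoid wells (126.1-fold, 94.5 to 172). Tagln (transgelin), an actin-binding protein, was 133-fold higher in MEF wells (89.6 to 206). Of the 18 mesenchymal identity genes 12 could be compared and all 12 were past the fold higher in MEF, with a median log2 ratio of 5.59, against the same share and median over all genes. Vim (vimentin), the mesenchymal intermediate filament, had 175, 298, 8, 6 and 243 counts in MEF wells, so the shallow wells 8 and 9 also held it. Fibroblast markers Dcn, Lum and Pdgfra had 0 counts in all 3 kinds, which limits them to 0.197 per 10000 in MEF wells. The genes of blood and endothelium had 2, 1 and 1 counts in mESC, MEF and organoid wells.

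**Figure D3:**
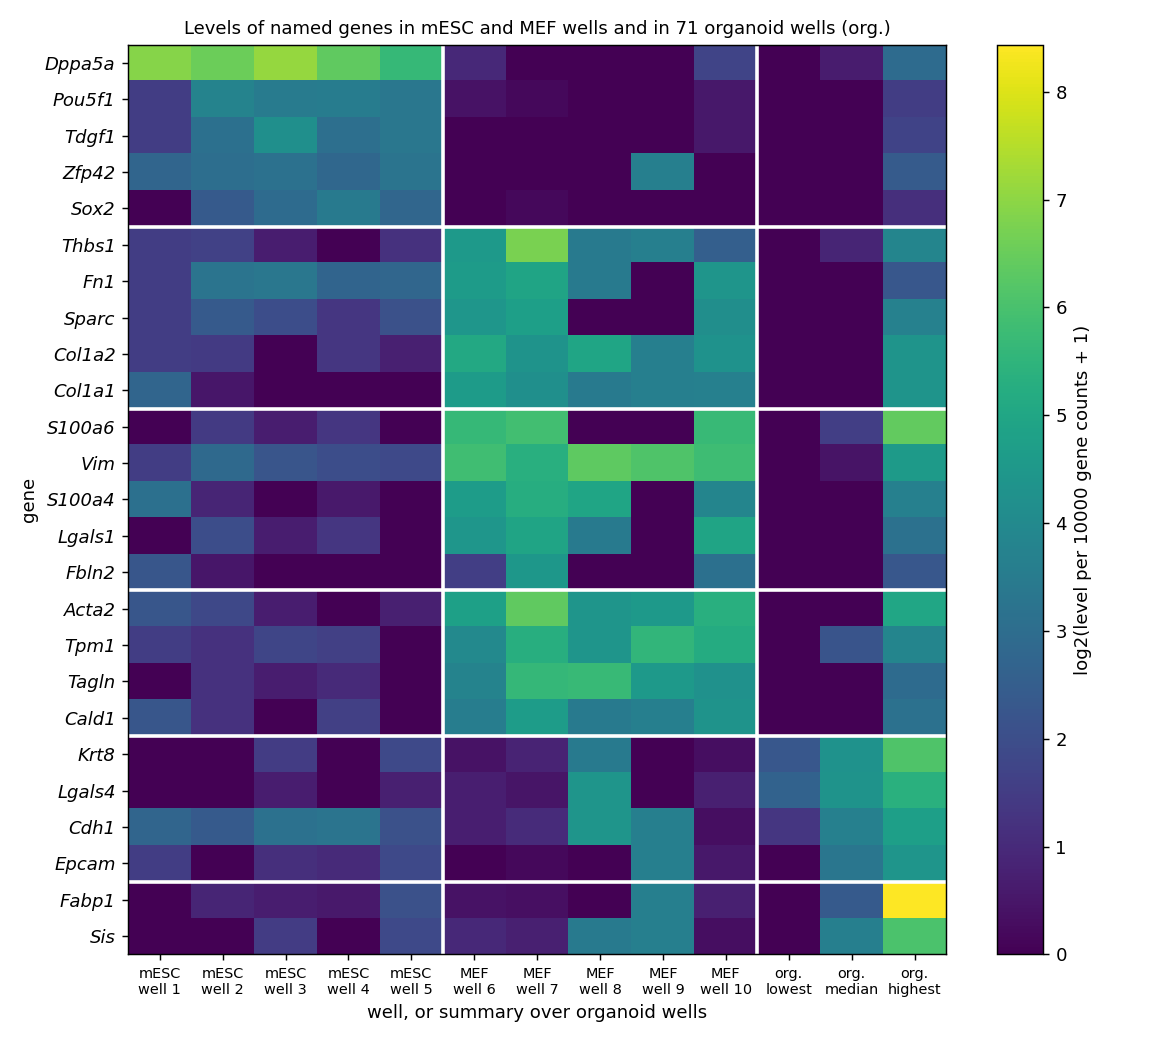
Levels of named genes, as log2 of the level per 10000 gene counts plus 1, in mESC wells 1 to 5, MEF wells 6 to 10, and as the lowest, median and highest of 71 organoid wells. Pluripotency genes are bright in the mESC columns and matrix, mesenchymal and contractile genes in the MEF columns, where wells 8 and 9 show Vim, Acta2 and Tagln as well.

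The imprinted list had its highest summed level in MEF wells. Its 20 genes summed to 7.34 per 10000 in mESC wells (5.59 to 9.47), 30.6 in MEF wells (27.8 to 33.5) and 1.52 in organoid wells (1.30 to 1.77). Of 6 genes compared with organoid wells 5 were past the fold higher in MEF (4.12% of all genes compared), namely H19, Igf2, Dlk1, Meg3 and Grb10. The other 14 genes of the list had too few counts to be compared. Most counts of Meg3 and H19 came from 1 cell, with 97 of 106 and 25 of 30 in MEF well 7. Grb10, an adaptor that damps growth-factor signalling, was 81.1-fold higher (43.8 to 167). Dlk1 had 21 counts in MEF wells and 0 in organoid wells, which makes it at least 49.6-fold higher with 3 counts over the organoid wells as the limit. The 39 Hox genes, which set position along the body axis, summed to 1 count in mESC wells, 64 in MEF wells and 67 in organoid wells, or 0.124, 4.21 and 0.622 per 10000. The kinds overlapped, as the highest organoid well had 10.1 per 10000 and the highest MEF well 4.37.

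Class I antigen presentation was low in mESC wells. The 8 genes summed to 1.87 per 10000 in mESC wells (1.04 to 3.08), 6.57 in MEF wells (5.35 to 7.99) and 14.2 in organoid wells (13.5 to 14.9). B2m, the light chain of these molecules, had 2, 3, 1, 0 and 1 counts in mESC wells and 8, 42, 0, 0 and 30 in MEF wells. Its level was 0.871 per 10000 in mESC wells, 5.26 in MEF wells and 5.52 in organoid wells, so MEF and organoid wells differed by less than the counting error. H2-K1, a class I heavy chain, had 4 counts in mESC wells, 3 in MEF wells and 545 in organoid wells. The Y-linked genes Ddx3y, Eif2s3y, Kdm5d and Uty together had 0 counts in mESC wells, 17 in MEF wells and 203 in organoid wells, and Xist had 0 in all 3 kinds. Per 10000 the sex-linked list had 0, 1.12 (0.651 to 1.79) and 1.88 (1.63 to 2.16).

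Epithelial genes were low in the reference cells. Of the 20 general epithelial genes 16 were past the fold lower in mESC than in organoid wells (4.3% of all genes compared) and 18 lower in MEF wells (7.53%). The median log2 ratio of the list was -3.17 in mESC wells and -4.03 in MEF wells. Lgals4, an intestinal galectin, had 2 counts in mESC wells and 10 in MEF wells, while organoid wells had between 2 and 97 with a median of 26. Krt8, a keratin of simple epithelia, had a level of 0.871 per 10000 in mESC wells, 0.591 in MEF wells and 20.4 in organoid wells. Cdh1 (E-cadherin), which mESC also use, had 3, 10, 13, 17 and 5 counts in mESC wells, 2, 8, 2, 1 and 1 in MEF wells and a median of 15 in organoid wells. It was 6.49-fold higher in mESC than in MEF wells (3.52 to 12.8) and reached 0.494 times its organoid level in mESC wells.

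Fabp1 (chr6:71199827-71205023, plus strand), the liver-type fatty acid binding protein of enterocytes, had 0, 2, 1, 1 and 5 counts in mESC wells, 1, 2, 0, 1 and 3 in MEF wells, and from 0 to 726 with a median of 5 in organoid wells. The kinds overlapped in single wells, and the summed level was 1.12 per 10000 in mESC wells, 0.460 in MEF wells and 23.8 in organoid wells. Of the 22 enterocyte genes 20 could be compared, with 15 past the fold lower in mESC (4.3% of all genes compared) and 17 lower in MEF (7.53%) than in organoid wells. Paneth genes, which encode antimicrobial proteins, summed to 3.61 per 10000 in mESC wells, 1.51 in MEF wells and 51.7 in organoid wells, and goblet genes of mucus to 3.11, 1.38 and 40.1. Single organoid wells reached 1437 for the Paneth list and 673 for the goblet list, where the medians were 5.20 and 3.73. Genes with the lowest ratios that belong to none of the lists named so far included Lgals2, which had 4 counts in mESC wells, 4 in MEF wells and 2027 in organoid wells, and Mt2, a metallothionein, with 29, 2 and 1864. Fos, an immediate early gene, had 0 counts in mESC wells, 21 in MEF wells and 650 in organoid wells. Its list of 17 immediate early and heat shock genes differed less, at 13.6, 12.1 and 18.7 per 10000. Of 15 list genes compared, 1 was past the fold higher and 2 lower in mESC than in organoid wells (1.46% and 4.3% of all genes).

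Over all genes, 103 were past the fold higher and 303 lower in mESC than in organoid wells, 295 higher and 539 lower in MEF than in organoid wells, and 98 higher and 283 lower in mESC than in MEF wells. A gene at 0 in a reference kind could pass as lower only if it was abundant in organoid wells. To pass as higher, it needed 20 counts among 80397 in mESC wells or 152197 in MEF wells. To be compared, 20 counts among 1078120 in organoid wells were enough. The split of mESC against organoid wells followed this minimum, with 266 higher and 303 lower at 10 counts, and 20 and 303 at 50 counts. The direction of the totals depended on the scale. With spike-in counts in place of gene counts, 536 genes were higher and 178 lower in MEF than in organoid wells (75.1% higher, against 35.4%), and 65 were higher and 557 lower in mESC than in MEF wells (10.5%, against 25.7%). This scale moved every log2 ratio by 1.04 for MEF over organoid, by -0.97 for mESC over MEF and by 0.07 for mESC over organoid, so that the median over all genes compared was 0.82 for MEF over organoid, against -0.21 on the scale of gene counts. With wells weighted equally, 114 genes were higher and 200 lower in mESC than in MEF wells (36.3% higher). Without MEF well 7, 136 genes were higher and 269 lower in MEF than in organoid wells, and 134 were lower in mESC than in MEF wells. Without mESC well 2, 201 were lower in mESC than in organoid wells.

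The wells without template measured the plate's background. Primer wells 87 to 92 had 467, 698, 104, 355, 67 and 305 counts of genes, a mean of 333 per well (318 to 348), or 2.19% of the mean organoid well. Wells 86 and 93 to 96, without primer, had 15, 2, 3, 1 and 35, a mean of 11.2 per well (8.46 to 14.5). The 2 kinds did not overlap. Spike-in counts were 5, 10, 0, 3, 2 and 10 in the primer wells and 0 in each well without primer, against a mean of 814 in organoid wells. The primer wells thus had 66.5 gene counts for each spike-in count, against 18.7 in organoid wells.

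Transcripts of enterocytes were frequent in primer wells. The enterocyte list had a level of 281 per 10000 in the primer wells (212 to 364), against 17.7 in mESC wells, 9.92 in MEF wells, 239 in organoid wells and 199 over all wells of the plate. Ribosomal protein genes, which every cell expresses, reached 1698 per 10000 in primer wells (1522 to 1889) and 1911 in organoid wells. The pluripotency list had 4 counts in the primer wells and the matrix list 1. Eef1a1, a translation elongation factor, and Rpsa, a ribosomal protein, had 17 counts each in the primer wells. Adh1 and Lgals4, at 1.37 and 0.249 per 10000 in mESC wells and 0.460 and 0.657 in MEF wells, were among the 10 leading genes with 10 counts each. Organoid wells gave 81.8% of all gene counts of the plate.

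Transcripts of mESC and MEF marker genes were counted in organoid wells of this plate more often than in the whole organoid libraries. Dppa5a had a count in 40 of 71 organoid wells (56.3%, exact binomial interval 44.1 to 68.1), against 17 of 276 wells of whole organoid replicate 1 (6.16%, 3.63 to 9.68) and 15 of 209 wells of replicate 2 (7.18%, 4.07 to 11.6), counting wells of at least 1500 gene counts. Median depth was 14664 gene counts in the control library organoid wells, 7982 in replicate 1 and 4608 in replicate 2. With each well reduced to 1500 counts, the expected share was 13.8% in the control library, 0.885% in replicate 1 and 1.96% in replicate 2. Sparc was found in 28 of 71 wells (39.4%), against 1 of 276 (0.362%) and 3 of 209 (1.44%), and at 1500 counts in 8.88%, 0.188% and 0.523%. Pou5f1 was found in 14 of 71 wells (19.7%), against 3 of 276 (1.09%) and 0 of 209, which allows up to 1.44%. Zfp42 was found in 10 of 71 wells (14.1%), against 0 of 276, which allows up to 1.09%, and 0 of 209. Col1a1 was found in 8 of 71 wells (11.3%), and Col1a2 in 15 of 71 (21.1%). For Fabp1, which organoid cells express, the share at 1500 counts was 54.2% in the control library, 79.1% in replicate 1 and 51.5% in replicate 2.

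**Figure D4:**
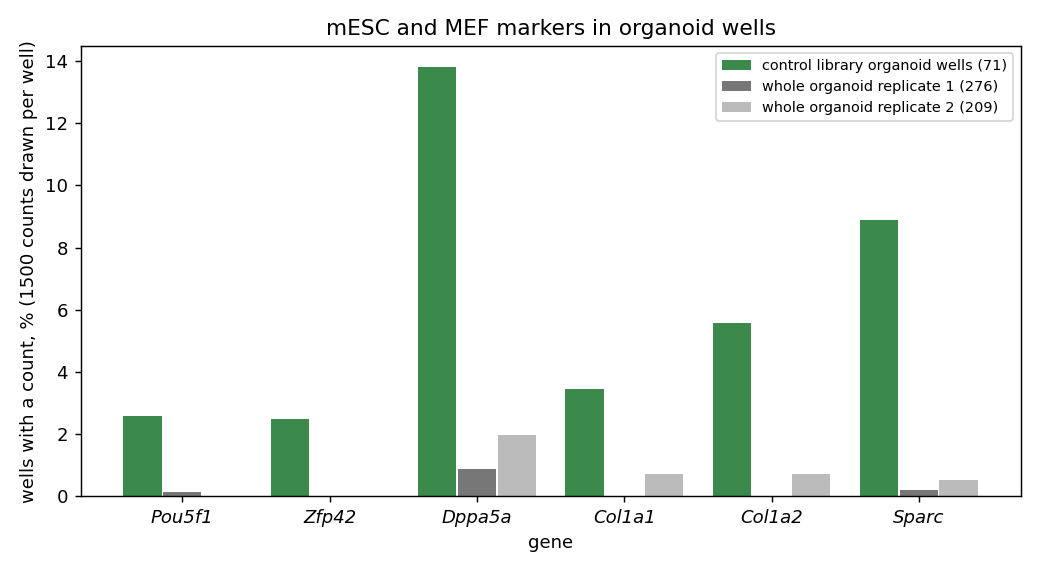
Expected share of wells with a count of each mESC or MEF marker when every well is reduced to 1500 gene counts, in organoid wells of the control library and in wells of whole organoid replicates 1 and 2. All 6 markers are highest in the control library, with Dppa5a at 13.8% and Sparc at 8.88%.

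Source genes were defined as those at least 50-fold higher in a reference kind than in both whole organoid libraries together, with at least 20 counts and a count in all 5 wells. This gave 28 mESC source genes, such as Dppa5a, Pou5f1, Zfp42, Tdgf1, Esrrb and Utf1, and 10 MEF source genes, namely Acta2, Ass1, Cald1, Col1a1, Col1a2, Fstl1, Grb10, Tagln, Thbs1 and Vim. Since the whole organoid libraries helped to choose them, their low level there is part of the choice. The mESC source genes had 401 counts in organoid wells, 3.72 per 10000 (3.36 to 4.10), which was 1.60% of their level of 233 in mESC wells. Their organoid level was 9.44 with genes past 20-fold, 7.89 with genes chosen against whole organoid replicate 1 alone and 5.59 with genes chosen without mESC well 3. The 28 genes had 0.287 in whole organoid replicate 1 and 0.605 in replicate 2. The MEF source genes had 414 counts, 3.84 per 10000 (3.48 to 4.23), or 1.36% of their level of 282 in MEF wells, against 0.378 in replicate 1 and 0.624 in replicate 2. With genes chosen without MEF well 9 their organoid level was 8.08. Both sets were found widely, in 68 and 65 of 71 organoid wells. Where genes were chosen against one whole organoid replicate and the other gave the background, the control library exceeded that background 3.46-fold and 10.7-fold for mESC genes, and 6.15-fold and 4.77-fold for MEF genes.

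Of the 28 mESC source genes, 8 were less than 4-fold higher in mESC than in MEF wells. The other 20 had 1574 counts in mESC wells, 74 in MEF wells and 240 in organoid wells, or 196, 4.86 (3.82 to 6.10) and 2.23 (1.95 to 2.53) per 10000. The MEF source genes reached 14.8 per 10000 in mESC wells (12.3 to 17.7), 5.26% of their MEF level and above their level in organoid wells. Of these 119 counts in mESC wells 23 were of Fstl1, which was a source gene of both kinds. In the primer wells 0 counts of the mESC source genes and 1 of the MEF source genes were found among 1996 gene counts, and a count of 0 allows up to 15.03 per 10000, above the organoid level.

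The MEF source transcripts were unevenly spread over organoid wells, with a median of 2.83 per 10000 and a highest of 117. Organoid well 14 had the highest level, with 30 counts of 7 MEF source genes among 2566 gene counts. Its spike-in count was low too, at 134 against a median of 832 over organoid wells. Well 19 followed among wells of at least 1500 counts, with 34 counts of 8 genes among 9134 (37.2 per 10000). Well 16, under 1500 counts, had 8 of 723 (111 per 10000). In well 14 Acta2 had 8 counts, Vim 6, and Col1a1 and Col1a2 5 each. The well also had 25 counts of the enterocyte list (97.4 per 10000), within the range of organoid wells, with Fabp1 at 0. In well 78 Thbs1 gave 19 of 31 MEF source counts. Without wells 14 and 19 the level over organoid wells was 3.28 per 10000.

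**Figure D5:**
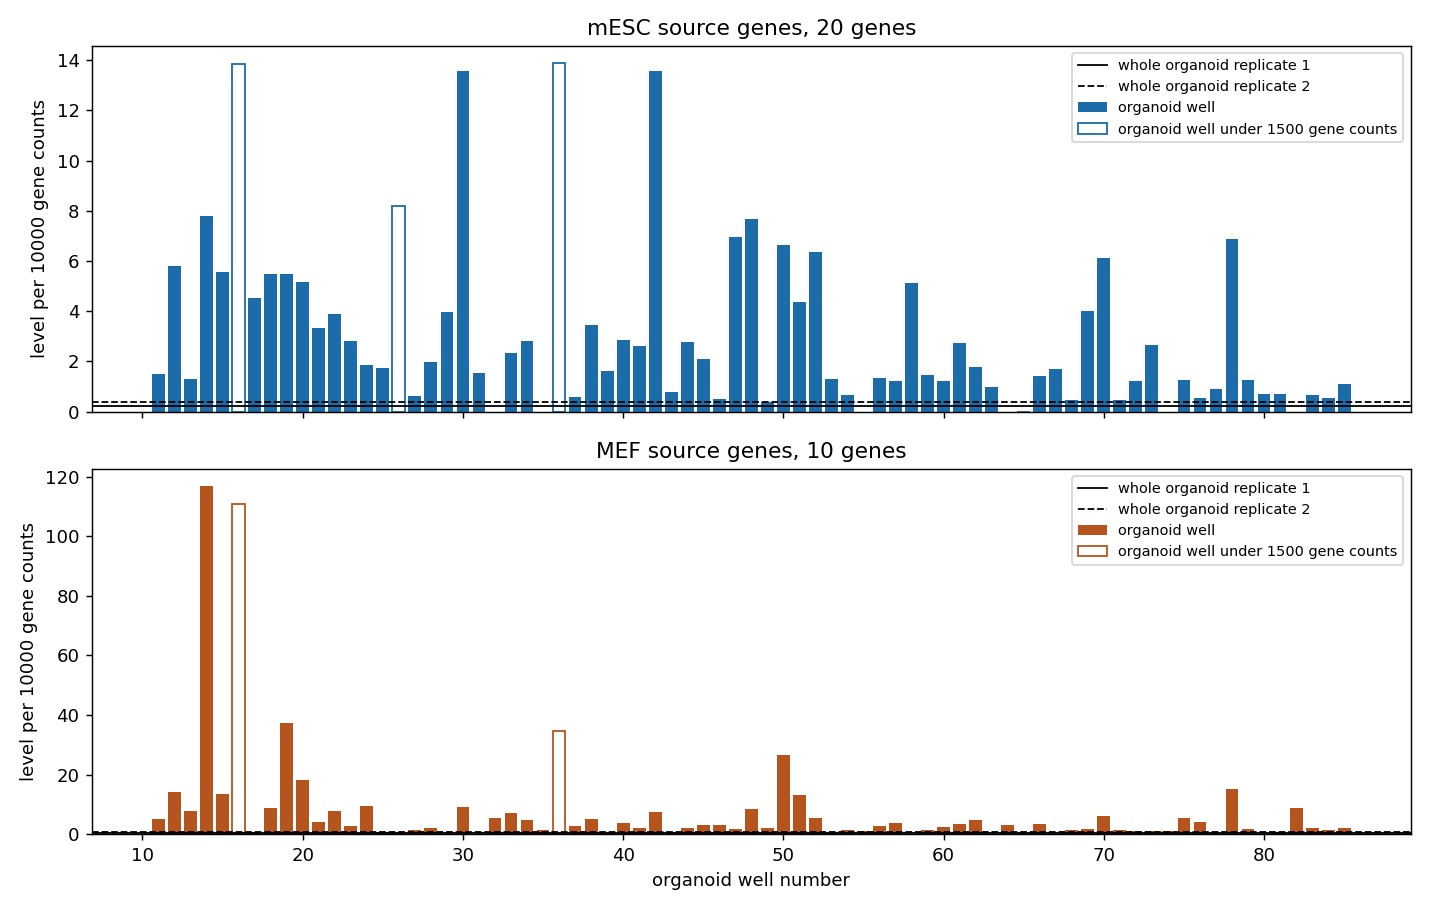
Level per 10000 gene counts of the 20 mESC source genes that stand apart from MEF (top) and of the 10 MEF source genes (bottom) in each organoid well by well number, with lines at their levels in whole organoid replicates 1 and 2. Open bars are wells under 1500 gene counts. The genes were chosen for a low level in those libraries, so the low lines are part of the choice. The lines of the upper panel lie at 0.231 and 0.393 per 10000. In organoid well 84 a single count, or 0.525 per 10000, already lay above them. Wells 14, 16 and 19 stand out in the lower panel.

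Levels were higher in organoid wells with low numbers, in blocks of wells that were chosen after the values had been seen. MEF source genes had 11.7 per 10000 in wells 11 to 24 (9.99 to 13.7; 7.68 without wells 14 and 19), 2.84 in wells 25 to 48, 2.35 in wells 49 to 72 and 3.14 in wells 73 to 85. The 20 mESC source genes had 3.91, 2.88, 1.71 and 1.41 per 10000 in the same blocks. Median depth ran the other way, at 9138, 13325, 16592 and 18858 gene counts per well. In counts per well, which do not carry the depth of the well as a divisor, MEF source genes had 12.2, 3.68, 4.17 and 6.00. The 20 mESC source genes had 53 counts in 13 wells, 82 in 22, 70 in 23 and 35 in 13, a weaker fall than per 10000. The part of depth and of well position in these levels was not tested.

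Barcode likeness did not order the levels in a simple way. The 3 organoid wells whose barcodes were 2 bases from that of a MEF well of at least 1500 counts had 4.48 MEF source counts per 10000 (2.73 to 6.91), and the 8 wells at 3 bases had 6.90 (5.56 to 8.46). The 9 wells at 4 bases had 3.13, the 21 wells at 5 bases 4.99, the 18 wells at 6 bases 2.57, the 11 wells at 7 bases 1.77 (1.20 to 2.53) and the 1 well at 8 bases 7.74. Wells 11 and 15, which share their first 5 bases with MEF well 7, had 5.28 and 13.4 per 10000. Well 62, at 2 bases from well 7 (tagacATC against acgacATC), had 4.77, while well 19, at 5 bases from the nearest such MEF barcode, had 37.2. For the 20 mESC source genes the levels were 2.33 at 2 bases (3 wells), 2.63 at 3 bases (18 wells), 2.64 at 4 bases (15 wells), 2.31 at 5 bases (8 wells) and 1.66 at 6 bases (27 wells). A part of barcode misreading in these counts was not tested.

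Transcripts of enterocyte genes were counted in the reference wells too. The enterocyte list had 8, 22, 23, 18 and 71 counts in mESC wells 1 to 5, and 41, 48, 4, 14 and 44 in MEF wells 6 to 10. Relative to the depth of the well this was between 9.04 and 46.5 per 10000 in mESC wells, and 13.3, 6.32, 40.2, 160 and 10.1 in MEF wells, against a range of 22.4 to 897 over organoid wells. The highest levels were in mESC well 5 and in the shallow MEF wells 8 and 9, and without mESC well 5 the level of the list in mESC wells was 0.0456 times that of organoid wells, against 0.0739 with it. In MEF wells 8 and 9 the MEF source genes had 241 and 194 per 10000, within the range of the other MEF wells (197 to 362) or close to it. The choice of these genes required a count in both wells, so part of these levels was fixed in advance. The matrix list, fixed without that rule, had 131 and 57.1 per 10000 there, against 153 to 395 in the other MEF wells.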

How the data were processed

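Deposited values are estimated counts of transcripts per gene and well, made by the authors from numbers of distinct molecular barcodes. Undoing a saturation correction for 256 possible barcodes gave a whole number (tolerance 1e-06) for all 332720 nonzero values of the control table. Per the submitters' processing notes, BWA 0.6.2-r126 and mm10 were used. The counting tool and annotation were not stated in these sources. The table held 23538 genes and 92 spike-ins. Values were rounded to whole numbers (largest shift 0.495) and summed per kind of well, and levels are per 10000 gene counts. Organoid wells and whole organoid wells under 1500 gene counts were left out. Another 1104 columns were not used. No wells with at least 10 counts were identical.

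Intervals are exact Poisson, or exact conditional binomial for ratios, at 95%. They cover counting error only, and a count of 0 was given a limit of 3 counts. Past the fold means at least 4-fold with at least 20 counts in the higher kind. Drawn gene numbers and shares are hypergeometric expectations. The fold rule was tested on simulated data. Named genes were 7 markers, up to 8 per direction with the largest ratios among genes of at least 100 counts found in every mESC or MEF well or in 25% of organoid wells, and up to 6 per list with the most counts, of which the text gives a part. Other list genes were chosen after their values were seen. Members and lists were chosen with earlier results of these data known. Python 3.11.15, numpy, pandas, scipy and matplotlib were used. Coordinates come from GENCODE M21 (GRCm38).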

Additional observations from a re-analysis of the deposited data

How the results depend on the processing

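No paired analysis was possible because the wells are single cells of 1 library and the results come from no test. Of the 19 results none turned the direction of its ratio or level, but on the spike-in scale the balance of MEF against organoid wells turned to more genes higher than lower, as it did at 8-fold (203 higher, 183 lower). For genes higher in mESC than in organoid wells (103), 8-fold gave 56, at least 10 counts 266 and at least 50 counts 20, and for those lower (303) 8-fold gave 107. For genes higher in MEF than in organoid wells (295), the spike-in scale gave 536, at least 10 counts 524 and at least 50 counts 122, and for those lower (539) the spike-in scale gave 178 and 8-fold 183. For genes higher in mESC than in MEF wells (98), the spike-in scale gave 65, 8-fold 62, at least 10 counts 281 and at least 50 counts 22, and for those lower (283) the spike-in scale gave 557, 8-fold 98 and at least 50 counts 121. Leaving out each mESC or MEF well gave 72 to 100 higher and 201 to 274 lower in mESC than in organoid wells, 136 to 295 and 269 to 543 in MEF than in organoid wells, and 67 to 104 and 134 to 284 in mESC than in MEF wells. The matrix list ratio of MEF to organoid wells was 123 on the spike-in scale, 25.1 with wells weighted equally and 37.4 to 71 leaving out a well. The enterocyte list ratio of MEF to organoid wells (0.0415) was 0.0852 on the spike-in scale, 0.193 with equal weights and 0.0379 to 0.0565 leaving out a well. That of mESC to organoid wells was 0.0456 to 0.0882, and the pluripotency ratio (19.7) 18.2 to 20.5, leaving out a well. Primer wells had 1.71 to 2.54%, and wells without primer 0.0346 to 0.0906%, of the mean organoid well leaving out a well. The mESC source level in organoid wells (3.72 per 10000) was 9.44 with genes past 20-fold, 2.23 with genes apart from MEF, 7.89 and 4.41 with genes chosen against whole organoid replicate 1 or 2, and 2.85 to 5.59 leaving out a well. The MEF source level (3.84) was 3.28 without organoid wells 14 and 19 and 3.84 to 8.08 leaving out a well, the highest without MEF well 9. Control library organoid wells stood 6.15-fold above whole organoid replicate 2 for MEF source genes, and 4.82-fold without plate IV wells 49 to 96, which the design text may mean as unrelated. In 1000 counts the median genes were 696 in mESC, 700.2 in MEF and 690.1 in organoid wells, and without drawing 4556, 6306 and 4110. The alternatives on MEF depth, genes apart from the other kind, replicate choice, wells 14 and 19, plate IV, equal weights of the lists and leaving out wells for the lists were chosen after seeing the data. The cause of these shifts was not tested. With 80397 counts in 5 mESC wells, genes under 20 counts in both kinds could not be compared.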

Other observations

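DNA methylation genes were highest in mESC wells. The 8 genes of the list, which set or remove methyl groups on DNA, summed to 11.4 per 10000 gene counts in mESC wells (9.23 to 14.03), 1.25 in MEF wells (0.752 to 1.95) and 2.78 in organoid wells (2.48 to 3.12). Dnmt3l, a catalytically inactive partner of the de novo enzymes, had 15 counts in mESC wells, 13 of them in well 5, 0 in MEF wells and 2 in organoid wells. Tet1, which oxidises methylated cytosine, had 15, 1 and 2 counts. Of 4 list genes compared between mESC and organoid wells 0 were past the fold, and these 2 were under 20 counts.

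Single genes of the other intestinal lists were counted in MEF wells. Of 173 crypt stem cell list counts in MEF wells 138 were of Cd44, a hyaluronan receptor of many cell types, and Lgr5, the crypt stem cell receptor, had 0 counts in mESC wells, 1 in MEF wells and 67 in organoid wells. Of 66 enteroendocrine list counts in MEF wells 59 were of Cpe, a peptide-processing enzyme. The 7 tuft cell genes in the table had 0, 5 and 2 counts in mESC, MEF and organoid wells. Hspb1, a small heat shock protein, had 69 counts in mESC wells, 80 in MEF wells and 13 in organoid wells, or 8.58, 5.26 and 0.121 per 10000. The 16 ubiquitous genes summed to 362 per 10000 in mESC wells, 393 in MEF wells and 347 in organoid wells.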
